A study of Mus musculus with 31 samples.

Results

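A set of 9 genes that low oxygen is known to switch on, out of the 25193 genes tested, was followed in the mouse brain after an intravenous injection of oleic acid. They were taken by name from the gene names on the array: Vegfa, Adm, Ddit4, Bnip3, Egln3, Pdk1, Ldha, Pgk1 and Ankrd37. RNA came from the whole brains of female C57BL/6 mice aged 6 weeks, with 31 arrays each taken as 1 mouse. Of these, 17 had received oleic acid (1.2 µl per g of body weight, in a volume of 200 µl) and 14 had received 200 µl of physiological serum, in both cases into the tail vein under xylazine and ketamine anaesthesia, so the serum mice shared the anaesthesia and the injection. Oleic acid given this way injures the lung and is used as a model of acute lung injury. Brains were taken 1, 1.5, 3, 4, 18 or 24 h later. There were 3 oleic acid mice at each time except 18 h, which had 2, while the serum mice numbered 3 at 1 h, 3 at 1.5 h and 2 at each later time. The whole brain mixes all regions and cell types, and in such bulk RNA fewer cells of a type cannot be told apart from less RNA per cell.

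Hypoxia-inducible factors (HIFs) pair an oxygen-labile alpha subunit (Hif1a, Epas1 or Hif3a) with a stable beta subunit (Arnt or Arnt2). With oxygen present, prolyl hydroxylases of the Egln family mark the alpha subunit, and the Vhl protein then targets it for breakdown. When oxygen falls the alpha subunit persists, enters the nucleus and binds short DNA elements with the core ACGTG or GCGTG near its target genes. In the brain these targets cover vessel growth and tone (Vegfa, Adm), restraint of growth and removal of mitochondria (Ddit4, Bnip3), feedback on HIF itself (Egln3) and a switch from respiration to glycolysis (Pdk1, Ldha, Pgk1). Ankrd37, an ankyrin repeat protein of less known function, is also a HIF target.

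RefSeq windows of 250 bases before each annotated start (GRCm38.p6) were searched on both strands for ACGTG and for GCGTG. All 9 genes had a window, 12 windows in all because Vegfa, Pdk1 and Ldha have 2 annotated starts each. A core of either kind was found in 10 of the 12 windows, against 38.6% of the 32851 windows of all genes. All 9 genes held a core in at least 1 window, a count per gene for which no share over all genes was taken. Vegfa counts only through the window of its second, internal start, since that of its upstream start held 0 cores. ACGTG alone was found in 7 of the 12 windows, against 16.6% of all windows. A match is only a run of 5 letters and is not evidence of binding. The windows of the 3 genes that later passed a test of time (Ddit4, Ankrd37 and Pdk1) and of the 2 with the most cores (Bnip3 and Ldha) are shown 5′ to 3′ on the strand of the gene, and capitals mark the cores on either strand (CACGT and CACGC are the same cores read on the other strand, and CACGTG is 1 core on each strand, overlapping).
Ddit4, chr10:59951771-59952020, minus strand: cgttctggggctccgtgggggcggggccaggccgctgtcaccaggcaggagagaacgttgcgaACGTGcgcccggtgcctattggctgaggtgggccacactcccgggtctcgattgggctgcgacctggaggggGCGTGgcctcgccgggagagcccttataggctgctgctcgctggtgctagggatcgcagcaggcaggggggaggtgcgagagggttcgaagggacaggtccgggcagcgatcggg
Ankrd37, chr8:45999851-46000100, minus strand: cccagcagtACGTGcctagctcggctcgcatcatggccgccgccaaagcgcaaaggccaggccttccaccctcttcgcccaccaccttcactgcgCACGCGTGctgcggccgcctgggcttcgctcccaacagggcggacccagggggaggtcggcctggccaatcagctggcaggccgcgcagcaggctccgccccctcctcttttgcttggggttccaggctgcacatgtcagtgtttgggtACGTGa
Pdk1, chr2:71872974-71873223, plus strand: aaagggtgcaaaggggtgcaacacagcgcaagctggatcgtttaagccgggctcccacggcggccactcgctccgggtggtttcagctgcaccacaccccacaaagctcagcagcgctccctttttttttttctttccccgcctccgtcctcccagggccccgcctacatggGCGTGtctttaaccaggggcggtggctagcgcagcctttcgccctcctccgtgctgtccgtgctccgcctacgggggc
Bnip3, chr7:138909507-138909756, minus strand: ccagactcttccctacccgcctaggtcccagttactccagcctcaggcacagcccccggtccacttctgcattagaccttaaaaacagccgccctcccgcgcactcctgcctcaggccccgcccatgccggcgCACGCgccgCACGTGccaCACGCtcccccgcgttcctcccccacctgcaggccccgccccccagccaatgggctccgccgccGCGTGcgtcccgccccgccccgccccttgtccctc
Ldha, chr7:46845554-46845803, plus strand: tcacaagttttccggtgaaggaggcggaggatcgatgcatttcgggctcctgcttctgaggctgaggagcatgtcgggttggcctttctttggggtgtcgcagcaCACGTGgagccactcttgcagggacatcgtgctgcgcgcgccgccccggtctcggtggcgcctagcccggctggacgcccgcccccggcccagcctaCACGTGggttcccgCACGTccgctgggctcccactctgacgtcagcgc
The Bnip3 and Ldha windows held 5 cores each, the Ankrd37 window 4, the Ddit4 window 2 and the shown Pdk1 window 1. The last ACGTG of Ankrd37 began 6 bases before the annotated start, and the others lay up to 241 bases before it.

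All 9 genes were readable in the brain. They had 15 probes, each well above background on all 31 arrays, and 5 of the 9 genes had 1 probe only. Each value is a log2 signal from which the array's own 75th percentile was subtracted, so 0 is the signal of the 75th percentile spot. Levels of different probes cannot be set against each other, so only the spread of each gene is compared. Within-group standard deviations ran between 0.11 (Bnip3) and 0.39 (Ddit4), with 19 residual degrees of freedom. The probes of the 3 genes that passed a test of time lie, in the array's mm9 annotation, at chr10:59412486-59412545 (Ddit4, minus strand), chr8:47082404-47082463 (Ankrd37, minus strand) and chr2:71739688-71739747 (Pdk1, plus strand). Their place in exons or UTRs was not analysed here. The single Pgk1 probe is placed by the array annotation on chromosome 3 (mm9, 57906830 to 57906894), whereas RefSeq places Pgk1 on chromosome X, so its values are given as uncertain because they may include a near-identical copy.

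Several features of the arrays bear on these values. The 31 arrays lay on 5 slides, and slide accounted for 84.8% of the spread of the first principal component (20.5% of the variance), against 0.400% for treatment. The 1 h groups lay wholly on slide 1 and the 4 h groups wholly on slide 4. At 18 h the oleic acid mice were on slide 5 and the serum mice on slide 4. The effects of treatment and of slide cannot be told apart at 18 h. At 1.5 h serum replicates 1 and 2 were on slide 1 and oleic acid replicates 2 and 3 on slide 3. The treatments at 1.5 h shared only slide 2, with 1 mouse of each. At 3 h all mice were on slide 3 except oleic acid replicate 3, on slide 4. On 4 arrays the log2 signal of Gabra6, a cerebellar granule cell gene, was under -5, and 3 held the highest signals for the pituitary hormone Prl. These 3 were 24 h arrays (oleic acid replicates 1 and 3 and serum replicate 2), and without them 1 array of each treatment is left at 24 h. All 11 neuronal, 8 astrocyte and 8 oligodendrocyte markers were above background on every array. Erythroid transcripts stood lower in the oleic acid mice, with 9 of 9 genes lower when averaged over times (median -0.53, none passing). Their summed level was 215 to 503 times the 75th percentile signal in oleic acid mice (median 297) and 311 to 901 in serum mice (median 441). Their part in the differences below was not tested.

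**Figure D1:**
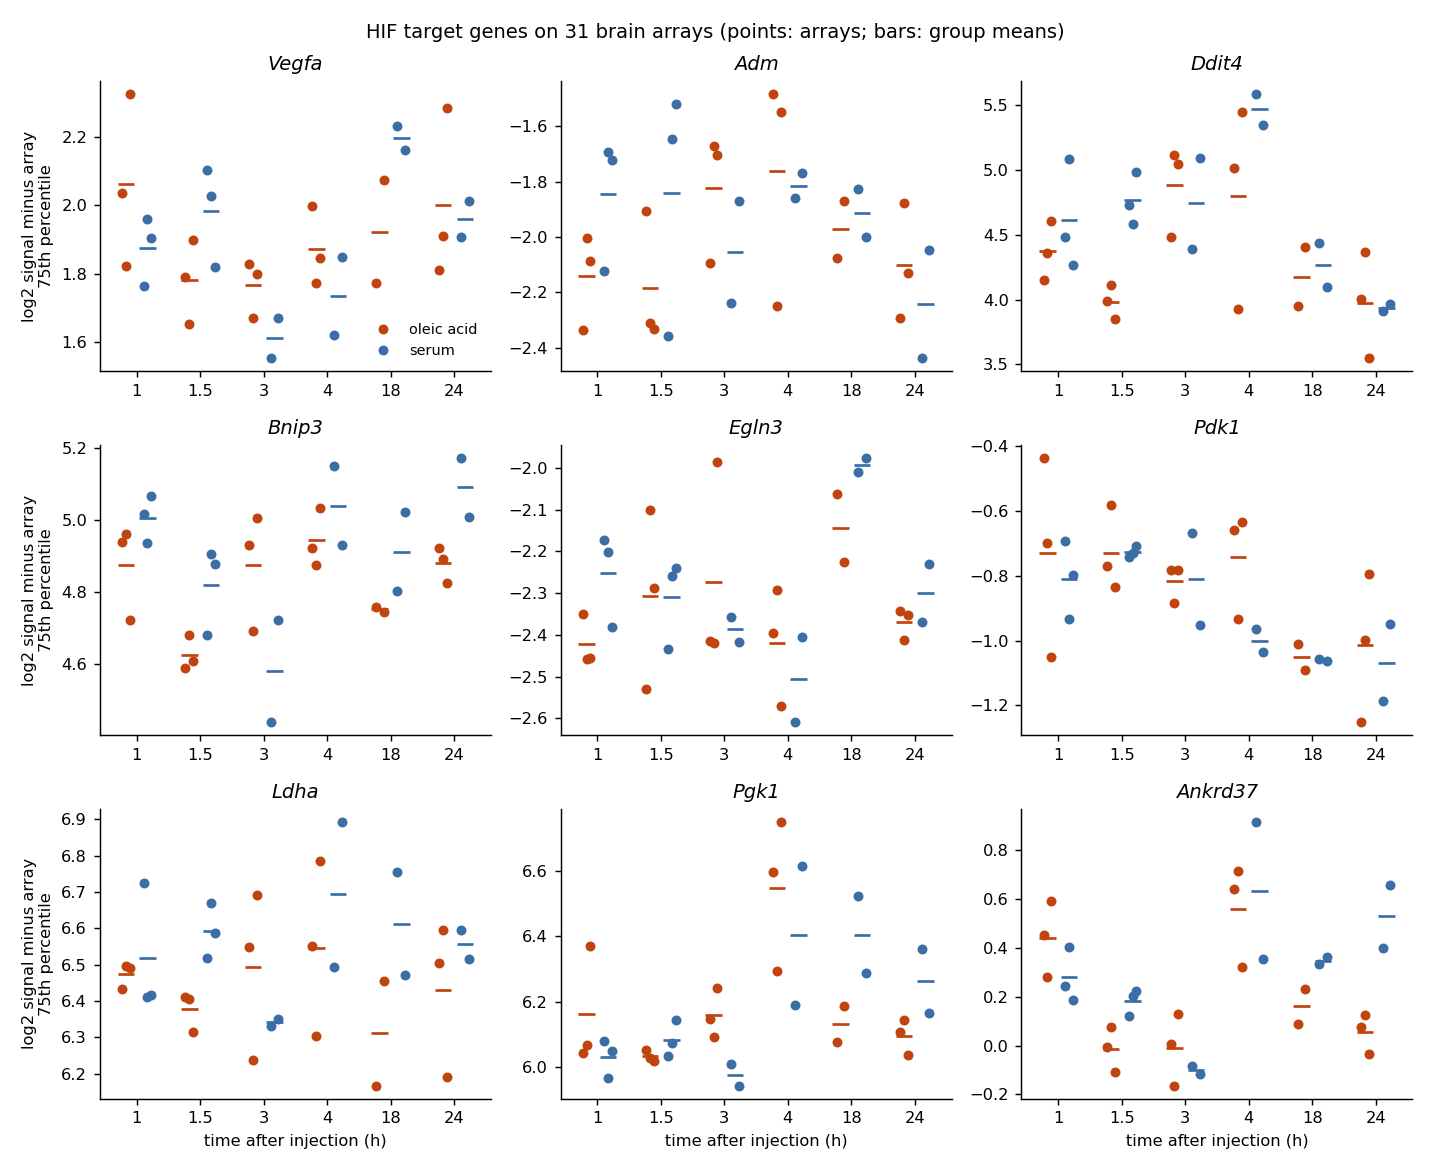
Log2 signal (relative to the array's 75th percentile) of the 9 HIF target genes on each of the 31 arrays against time after injection in h, with oleic acid mice left of serum mice at each time. Points are arrays and bars are group means. The scales differ between panels. Ddit4 spans the widest range, between 3.55 and 5.59, and over all times the treatments overlap in all 9 panels.

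None of the HIF target genes passed a test of oleic acid against serum. Of the 9 genes, 0 passed limma's test (Benjamini-Hochberg adjusted p under 0.05 over all 25193 genes) at 1, 1.5, 3, 4, 18 or 24 h, averaged over the 6 times, or for a difference of the effect between times. Over all genes 0% passed in each of these comparisons except 4 h, where 1 gene, or 0.00397%, passed. Under the alternative settings tried, 0 of 2931 recomputed differences of the 9 genes passed. At an unadjusted p under 0.05 the count was 1 of 9 at 1.5 h (Ddit4), 1 at 3 h (Bnip3) and 1 at 24 h (Ankrd37), and 0 of 9 at 1, 4 and 18 h, for the average and for the difference between times. All genes tested reached that level in 5.34% of cases at 1.5 h, 4.85% at 3 h, 6.57% at 24 h, 4.86% at 1 h, 3.04% at 4 h, 7.28% at 18 h, 4.63% for the average and 5.44% for the difference between times.

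Averaged over times, the differences of the 9 genes lay between -0.27 and 0.07 on the log2 scale, 7 of them below 0, with a median of -0.05 against -0.006 over all genes, of which 52.9% were below 0. For Vegfa the average difference was 0.01 ± 0.06 (SE), with a 95% interval of -0.12 to 0.13. The widest interval was that of Ddit4, at 0.683-fold to 1.01-fold, and that of Pdk1 reached 1.14-fold. All 9 intervals included no change. The adjusted p of limma's test was 0.998 or higher for every one of them.

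**Figure D2:**
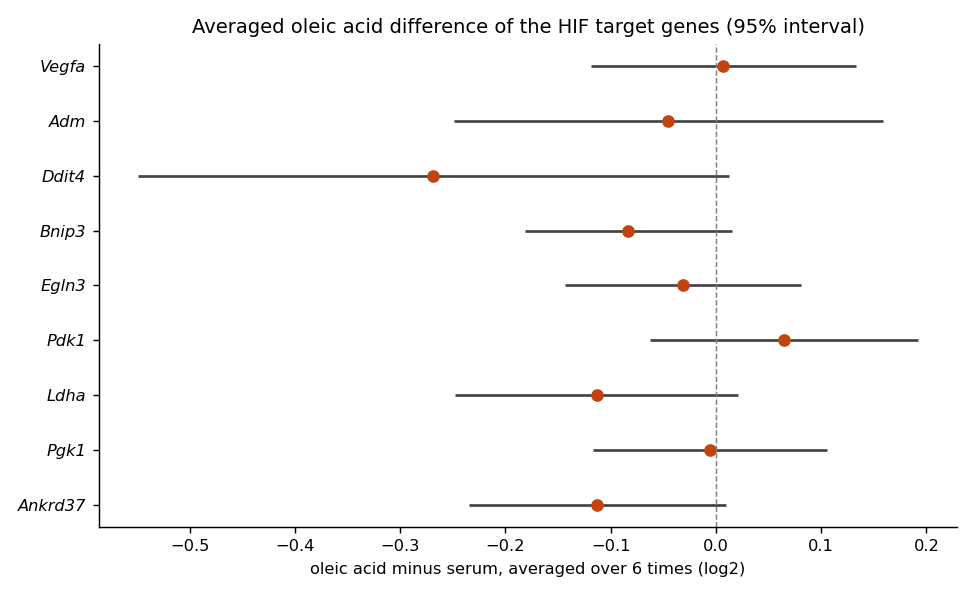
Oleic acid minus serum difference averaged over the 6 times (log2) for each HIF target gene, with its 95% interval from the limma fit. All 9 intervals cross 0, and that of Ddit4 is the widest, between -0.55 and 0.01.

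Split by time, the genes leaned one way and then the other. The count of genes lower in oleic acid mice was 5 of 9 at 1 h, 8 at 1.5 h, 1 at 3 h, 4 at 4 h, 8 at 18 h and 5 at 24 h. The median differences at these times were -0.04, -0.19, 0.15, 0.05, -0.16 and -0.07. Of all genes, 49.6% were lower at 1 h, 52.6% at 1.5 h (median -0.01), 46.4% at 3 h (median 0.02), 48.6% at 4 h, 54.8% at 18 h (median -0.04) and 57.7% at 24 h. Genes measured on the same brains are not independent, so these counts are a description.

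**Figure D3:**
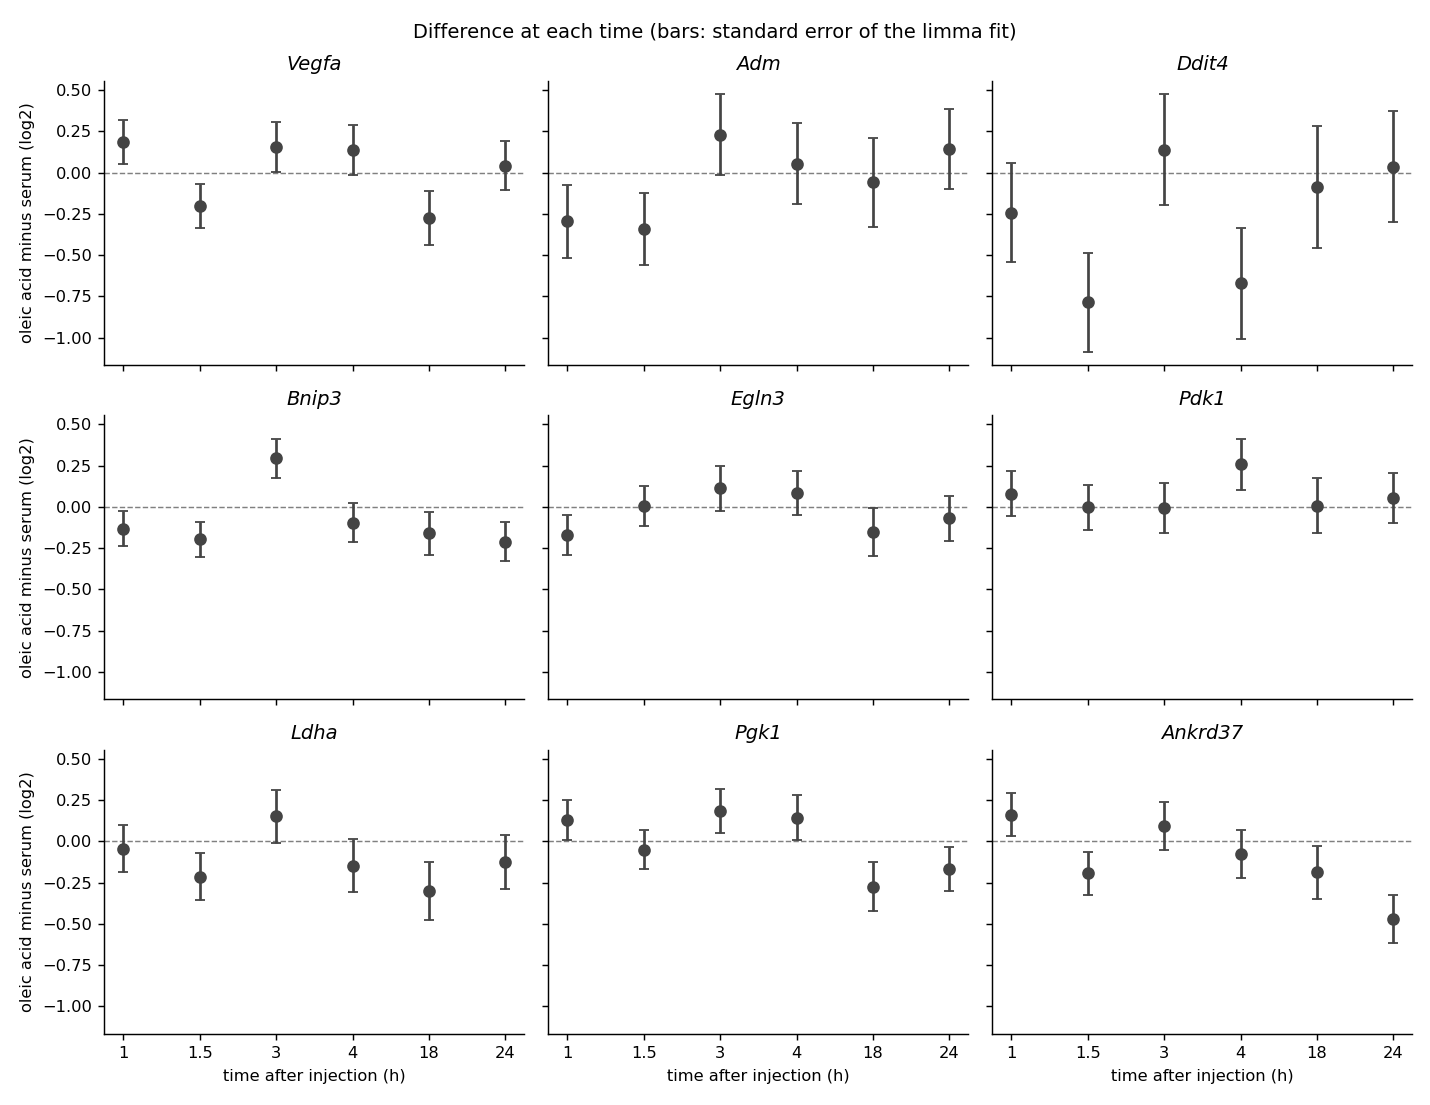
Oleic acid minus serum difference (log2) of each HIF target gene at each time in h, with the standard error of the limma fit, on one scale. Ddit4 at 1.5 h (-0.79) is the largest difference in size, and most others stay within 0.3 of 0.

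Vegfa encodes the main growth factor of vessels. In oleic acid mice its lowest, median and highest log2 signals were 1.65, 1.83 and 2.33, and in serum mice 1.55, 1.90 and 2.23. The treatments covered nearly the same range. At 18 h the groups did not overlap, with 1.77 and 2.07 in oleic acid mice and 2.23 and 2.16 in serum mice. That difference of -0.28 ± 0.16 had an adjusted p of 0.682 in limma's test, and at 18 h 52.4% of all genes had groups that did not overlap. The second Vegfa probe had the opposite sign at 1 h (-0.24, against 0.19 for the probe used) and at 3 h (-0.34, against 0.15). Vegfa therefore had no settled direction at these times.

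Adm encodes adrenomedullin, a peptide that widens vessels. Its lowest, median and highest log2 signals were -2.34, -2.08 and -1.48 in oleic acid mice and -2.44, -1.86 and -1.52 in serum mice. Its difference ran between -0.34 ± 0.22 at 1.5 h and 0.23 ± 0.24 at 3 h. Neither passed, and the groups overlapped at all 6 times.

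Ddit4, an inhibitor of the growth kinase complex mTORC1 that is also induced by glucocorticoids and other stress, had the largest differences of the 9. At 1.5 h its log2 signals were 3.99, 4.11 and 3.85 in oleic acid mice and 4.73, 4.59 and 4.99 in serum mice. All 3 oleic acid mice lay below all 3 serum mice, as for Ldha and Ankrd37 at that time. Among all genes 6.59% had the oleic acid mice wholly lower at 1.5 h, and 10.8% had groups apart either way. The difference was -0.79 ± 0.30, a signal of 0.580-fold with a 95% interval of 0.376 to 0.895, and its adjusted p over all genes was 0.851 (limma), so it did not pass. On slide 2, which held 1 oleic acid and 1 serum mouse at 1.5 h, the difference was -1.001. The other serum mice at that time were on slide 1 and the other oleic acid mice on slide 3. At 4 h the oleic acid mice had 5.02, 3.93 and 5.45 and the serum mice 5.59 and 5.35, a difference of -0.67 ± 0.34 (adjusted p 0.996, limma) in which 1 oleic acid mouse at 3.93 stood far below the other 2. At 3, 18 and 24 h its differences were 0.14, -0.09 and 0.04.

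Glucocorticoid response genes leaned the same way as Ddit4 at 1.5 h. Of 17 such genes measured, 13 were lower in oleic acid mice at 1.5 h (median -0.24, none passing), and at 3 h 17 of 17 were higher (median 0.17, none passing). Their mean log2 signal at 1.5 h was 1.59 to 1.91 across the oleic acid mice and 1.82 to 2.19 across the serum mice. At 4 h, where Ddit4 differed by -0.67, the treatments overlapped in this list. Its mean log2 signal was then 2.61 to 2.92 across the oleic acid mice (mean 2.79) and 2.37 to 3.32 across the serum mice (mean 2.84). Over the 31 arrays Ddit4 followed the mean log2 signal of this list with r = 0.70, a description over arrays that share slides and times. Ddit4 also had r = 0.51 with the oligodendrocyte markers and 0.51 with the list of secreted and vascular HIF targets. With the choroid plexus markers it had 0.47, and with the neuronal and the astrocyte markers 0.43 each. At 1.5 h cerebellar markers were lower too, 10 of 10 (median -0.59, none passing), as were 8 of 9 erythroid genes (median -0.30, none passing). Of 8 neutrophil and monocyte markers, 6 were higher (median 0.66, none passing), with mean log2 signals of -2.43 to -2.38 in oleic acid mice and -3.32 to -2.99 in serum mice. Only 5 of these 8 markers were above background on every array. The part of these lists in the Ddit4 difference was not tested.

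Bnip3 encodes a receptor that marks mitochondria for removal. At 3 h its log2 signals were 4.93, 4.69 and 5.00 in oleic acid mice and 4.44 and 4.72 in serum mice, a difference of 0.30 ± 0.12 that did not pass (adjusted p 0.938, limma). The groups overlapped, since the lowest oleic acid value lay just below the higher serum value. On slide 3, with 2 mice of each treatment, the difference was 0.23. At 24 h the order was the reverse and the groups were apart, with 4.92, 4.89 and 4.83 in oleic acid mice and 5.17 and 5.01 in serum mice, a difference of -0.21 ± 0.12 (adjusted p 0.748, limma). One of its other 2 probes gave 0.05 at 24 h.

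Egln3, the prolyl hydroxylase whose own gene is a HIF target, varied little on the probe used. Its lowest, median and highest log2 signals were -2.57, -2.35 and -1.99 in oleic acid mice and -2.61, -2.31 and -1.98 in serum mice. The second, dimmer Egln3 probe ran over a wider range, between -3.27 and -2.22. On the probe used, the largest difference of Egln3 was -0.17 ± 0.12 at 1 h. At 18 h it had -2.06 and -2.23 in oleic acid mice and -2.01 and -1.98 in serum mice, which did not overlap (-0.15 ± 0.15, adjusted p 0.754, limma). With slide as a fixed block that difference turned to 0.75 ± 0.29 (adjusted p 0.859, limma). That value rests on arrays of other times, since the treatments shared no slide at 18 h.

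Ankrd37 gave the smallest unadjusted p of any gene and time among the 9. At 24 h its log2 signals were 0.08, 0.13 and -0.03 in oleic acid mice and 0.40 and 0.66 in serum mice. All 3 oleic acid mice lay lower, and the difference of -0.47 ± 0.15, or 0.721-fold, had an unadjusted p of 0.00399, which ranked 148th of 25193, and an adjusted p of 0.652 (limma). At 24 h 3 of the 9 genes (Bnip3, Pgk1 and Ankrd37) had the oleic acid mice wholly lower, against 16.9% of all genes, and 28.9% of all genes had groups apart either way. On slide 5, which held the 3 oleic acid mice and 1 of the serum mice, the difference was -0.34. Without the 3 arrays of highest Prl the Ankrd37 difference at 24 h was -0.27, between 1 oleic acid and 1 serum mouse. At 1.5 h the oleic acid mice were also wholly lower (-0.01, 0.08 and -0.11, against 0.12, 0.20 and 0.22 in serum mice), by -0.19 ± 0.13 with an adjusted p of 0.922 (limma). On slide 2, with 1 mouse of each treatment, the difference was -0.23. The other mice at 1.5 h lay on different slides by treatment.

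Pdk1, a kinase that inhibits pyruvate dehydrogenase, was the only one of the 9 with groups apart at 4 h. It had -0.66, -0.93 and -0.63 in oleic acid mice and -0.97 and -1.03 in serum mice, a difference of 0.26 ± 0.15 (adjusted p 0.996, limma), while 9.46% of all genes had the oleic acid mice wholly higher at 4 h and 18.2% had groups apart either way. At the other 5 times its differences were between -0.01 and 0.08, and its groups overlapped.

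Ldha, the lactate dehydrogenase subunit that makes lactate from pyruvate, had log2 signals of 6.41, 6.41 and 6.31 in oleic acid mice and 6.52, 6.67 and 6.59 in serum mice at 1.5 h. The difference there was -0.21 ± 0.14 (adjusted p 0.922, limma), and another of its 3 probes gave 0.12. On slide 2, with 1 mouse of each treatment, the difference was -0.18. The other mice at 1.5 h lay on different slides by treatment. At 18 h it had 6.17 and 6.46 in oleic acid mice and 6.75 and 6.47 in serum mice, a difference of -0.30 ± 0.18 (adjusted p 0.682, limma) with groups that only just stayed apart. Microglial markers lay the same way at 18 h: 8 of 8 were lower in oleic acid mice (median -0.43, none passing), with mean log2 signals of 1.97 and 1.99 in oleic acid mice and 2.18 and 2.57 in serum mice. Over the 31 arrays, which share slides, Ldha followed their mean log2 signal with r = 0.74. Their summed level was 44.4 to 58.5 in oleic acid mice (median 51.6) and 46.1 to 68.1 in serum mice (median 53.1), in units of the 75th percentile signal, and all 8 markers were above background on every array. Ldha also had r = -0.61 with the cerebellar list over the 31 arrays. With the lists of glucose and glycolysis genes, secreted and vascular genes and endothelial markers it had 0.64, 0.58 and 0.50. At 18 h the cerebellar mean log2 signals were 1.91 and 2.19 in oleic acid mice and -1.08 and 1.79 in serum mice. The part of the microglial and of these other lists in the Ldha difference was not tested.

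The Pgk1 probe, named for the phosphoglycerate kinase of glycolysis but of uncertain origin, was the 1 of the 9 with groups apart at 3 h. It had 6.15, 6.09 and 6.24 in oleic acid mice and 6.01 and 5.94 in serum mice, a difference of 0.18 ± 0.13 (adjusted p 0.938, limma). Over all genes, 10% had the oleic acid mice wholly higher and 17.7% had groups apart at 3 h. At 18 h the oleic acid mice lay lower, with 6.08 and 6.19 against 6.52 and 6.29 in serum mice (-0.27 ± 0.15, adjusted p 0.673, limma). At 18 h 6 of the 9 genes (Vegfa, Bnip3, Egln3, Ldha, Pgk1 and Ankrd37) had both oleic acid mice below both serum mice. Of these, with slide as a fixed block Egln3 was 0.75 ± 0.29 and Ankrd37 0.27 ± 0.40. The treatments shared no slide at 18 h, so these 2 values rest on arrays of other times and settle no direction. Bnip3 turned to 0.03 with normexp background correction and to 0.14 in the authors' deposited table. The count of 6 is one that can be read only against the 29.5% of all genes that did so between these 2 slides. At 18 h 9 of 9 erythroid genes were also lower (median -0.77) and 10 of 10 cerebellar markers higher (median 1.69), none passing. Of 10 endothelial markers 9 were lower at 18 h (median -0.26, none passing), with mean log2 signals of 1.00 and 1.03 in oleic acid mice and 1.18 and 1.36 in serum mice, and of 8 neutrophil and monocyte markers 7 were lower (median -0.89, none passing). Only 5 of those 8 neutrophil and monocyte markers were above background on every array. The part of these lists was not tested. At 1 h no gene of the 9 had groups apart, against 9.89% of all genes.

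A test of time after injection was passed by 3 of the HIF target genes. Of the 9, 1 gene passed an F-test of time in oleic acid mice (Ankrd37, adjusted p 0.0197, limma), against 7.08% of all genes, and 1 passed in serum mice (Ankrd37 again, adjusted p 0.0359), against 10.4% of all genes. Against 1 and 1.5 h, 1 of the 9 passed at 3 and 4 h (Ddit4) and 1 at 18 and 24 h (Pdk1), where 9.43% and 11.2% of all genes passed. These shares of 1 in 9 are near the background. Unadjusted p was under 0.05 for 3 of the 9 in oleic acid mice, against 26.3% of all genes, and for 6 in serum mice, against 34.6%. It was under 0.05 for 3 of the 9 in each of the 2 contrasts, against 26.6% of all genes at 3 and 4 h and 26.2% at 18 and 24 h.

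Ankrd37 had its highest mean at 4 h under both treatments. Its mean log2 signals in oleic acid mice were 0.44 ± 0.16 at 1 h, -0.01 ± 0.09 at 1.5 h, -0.01 ± 0.15 at 3 h, 0.56 ± 0.21 at 4 h, 0.16 ± 0.10 at 18 h and 0.06 ± 0.08 at 24 h (SD, n = 3, but 2 at 18 h). In serum mice they were 0.28 ± 0.11 and 0.18 ± 0.05 at 1 and 1.5 h (SD, n = 3), and -0.10 ± 0.02, 0.63 ± 0.40, 0.35 ± 0.02 and 0.53 ± 0.18 at 3, 4, 18 and 24 h (SD, n = 2). The level at 3 h was thus low and that at 4 h high under both treatments, and the oleic acid mice at 3 h (0.01, -0.16 and 0.13) did not overlap those at 4 h (0.64, 0.72 and 0.32). All 3 h mice but 1 were on slide 3 and all 4 h mice on slide 4. This step in time is therefore nearly a step between slides, which both treatments share. The 1 mouse at 3 h on slide 4, oleic acid replicate 3, had 0.13. With slide as a fixed block the adjusted p was 0.948 in oleic acid mice and 0.683 in serum mice, and with slide as a random block 0.245 and 0.190 (limma). Without the 3 arrays of highest Prl it was 0.0505 in oleic acid mice and 0.0826 in serum mice. With scaling to the median it was 0.0883 in oleic acid mice and 0.0690 in serum mice. In serum mice it was also above the threshold with normexp background correction (0.0508), in the authors' deposited table (0.0507) and with no filter on dim probes (0.0670). The call in oleic acid mice was also lost without replicate 1 (adjusted p 0.0681) or replicate 2 (0.0506) of the oleic acid 4 h group. That in serum mice was lost without replicate 1 (0.0968) or 2 (0.0868) of the serum 3 h group, replicate 1 of the serum 4 h group (0.0530), replicate 1 (0.0678) or 2 (0.0583) of the serum 18 h group, or replicate 2 of the serum 24 h group (0.0605).

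Ddit4 rose by 0.54 ± 0.16 at 3 and 4 h against 1 and 1.5 h over both treatments, or 1.45-fold (adjusted p 0.0369, limma). Its means at 3 and 4 h were 4.88 ± 0.35 and 4.798 ± 0.78 in oleic acid mice (SD, n = 3) and 4.74 ± 0.50 and 5.47 ± 0.17 in serum mice (SD, n = 2). At 1 and 1.5 h they were 4.37 ± 0.23 and 3.98 ± 0.13 in oleic acid mice and 4.61 ± 0.42 and 4.77 ± 0.20 in serum mice (SD, n = 3). The lowest means of the early times were thus those of oleic acid mice. On slide 3, the 4 mice at 3 h, 2 of each treatment, stood 0.79 above the 2 oleic acid mice at 1.5 h. That difference mixes time with treatment, since no serum mouse at 1.5 h was on slide 3. Replicate 2 of the oleic acid mice at 1.5 h was also an array of low Gabra6. With slide as a fixed block the rise was 0.18 (adjusted p 0.981, limma), and as a random block 0.50 (adjusted p 0.431). Without the 4 arrays of low Gabra6 it was 0.49 (adjusted p 0.148). Leaving out 1 array at a time, it passed in 17 of 31 cases, with adjusted p between 0.00432 and 0.114. The arrays without which it was lost were oleic acid replicates 1 and 2 at 1 h, 3 at 1.5 h, 2 and 3 at 3 h, and 1 and 3 at 4 h, and serum replicates 1 and 3 at 1 h, 1 and 2 at 1.5 h, 2 at 3 h, and 1 and 2 at 4 h.

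Pdk1 fell by 0.30 ± 0.07 at 18 and 24 h against 1 and 1.5 h, a signal 1.23-fold lower (adjusted p 0.0119, limma). Its means at 18 and 24 h were -1.05 ± 0.06 (SD, n = 2) and -1.01 ± 0.23 (SD, n = 3) in oleic acid mice, with -1.06 and -1.06 at 18 h and -1.19 and -0.95 at 24 h on the single serum arrays. At 1 and 1.5 h its means were -0.73 ± 0.31 and -0.73 ± 0.13 in oleic acid mice and -0.81 ± 0.12 and -0.73 ± 0.02 in serum mice (SD, n = 3). Both treatments stood lower at the late times. The call held in all 31 fits that left out 1 array, but with slide as a fixed block the difference was -0.19 (adjusted p 0.999, limma), as a random block -0.29 (adjusted p 0.255) and without the arrays of low Gabra6 -0.27 (adjusted p 0.0526). On slide 2, the 1 serum mouse at 24 h stood 0.21 lower (-0.21) than the 2 mice at 1.5 h. In this contrast 9 of 10 cerebellar markers stood higher (median 0.50) and 6 of 6 pituitary markers stood higher (median 1.44). Of the 6 pituitary markers, 2 were above background on every array. The mean log2 signal of the 6 reached 2.74 in oleic acid mice and 2.93 in serum mice at 24 h. At 18 h it was at most -2.77 and -3.49. Arrays of low Gabra6 or of highest Prl were left out in refits, but the part of these lists was not tested further.

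**Figure D4:**
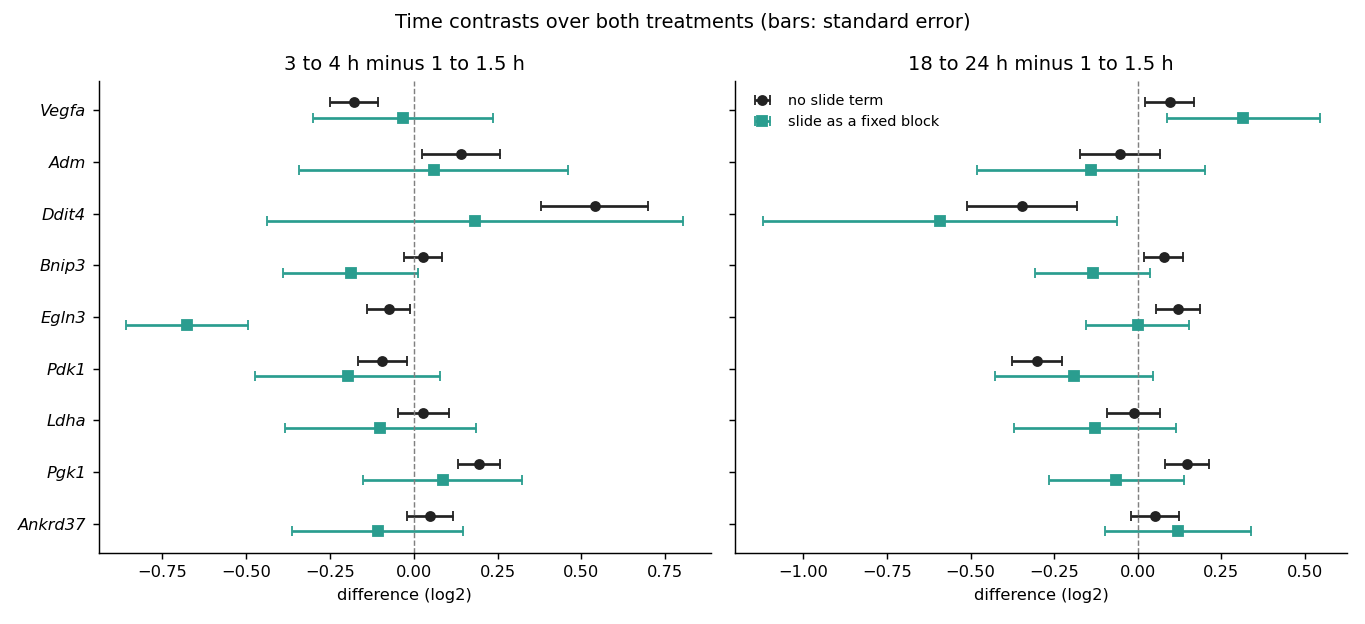
Differences (log2) of the 9 HIF target genes at 3 to 4 h (left) and 18 to 24 h (right) against 1 to 1.5 h over both treatments, with standard errors, without a slide term (circles) and with slide as a fixed block (squares). The rise of Ddit4 is 0.54 without and 0.18 with the slide term, and the bars widen for all 9 genes.

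The rest of the HIF pathway, 79 genes measured of 88 listed, gave 0 passing genes for oleic acid against serum at any time or on average (limma), with 5, 5, 7, 2, 11 and 6 genes at an unadjusted p under 0.05 at 1, 1.5, 3, 4, 18 and 24 h and 6 on average. Of all genes, 4.86%, 5.34%, 4.85%, 3.04%, 7.28%, 6.57% and 4.63% had such a p in these comparisons. For a difference between times 0 passed and 10 had an unadjusted p under 0.05, against 5.44% of all genes. Among those nearest to passing, P4ha2, a collagen prolyl hydroxylase, differed by -0.56 ± 0.13 at 18 h (adjusted p 0.604). Cited2, which competes with HIF for its coactivator, differed by -0.69 ± 0.18 at 3 h (adjusted p 0.814). Dusp1, a phosphatase of stress kinases, differed by -0.89 ± 0.25 at 1.5 h (adjusted p 0.657), and Vhl by 0.43 ± 0.13 at 24 h (adjusted p 0.652). At 24 h Bhlhe41, a clock repressor, differed by -0.85, at 1 h its relative Bhlhe40 by 0.60 and Edn1, the vasoconstrictor endothelin, by -0.74. Errfi1, an inhibitor of the EGF receptor, differed by -0.52 at 1.5 h, Zfp395 by -0.85 at 3 h, Pfkfb3, a stimulator of glycolysis, by -0.54 at 18 h, and Egln1, the main HIF prolyl hydroxylase, by 0.49 at 4 h. The 2 serum arrays stood far apart for Egln1 at 4 h (-1.68 and -0.94) and Zfp395 at 3 h (-2.14 and -1.36). So they did for Bhlhe41 at 24 h (-2.30 and -1.37). Tceb1, the elongin C that works with Vhl, differed by -0.21 at 4 h and -0.11 on average, and P4ha1 by -0.22 on average. At 18 h, 58 of the 79 were lower in oleic acid mice (median -0.18), when 54.8% of all genes were lower.

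Of the 12 genes of HIF subunits and oxygen sensing, 6 were higher and 6 lower in oleic acid mice on average (median 0.03, 0 passing in limma's test and 1 at an unadjusted p under 0.05). Hif1a, the main oxygen-labile subunit, had means in oleic acid mice of 0.98 ± 0.19, 0.40 ± 0.10, 0.65 ± 0.12, 0.41 ± 0.42, 0.73 ± 0.05 and 0.58 ± 0.20 at 1, 1.5, 3, 4, 18 and 24 h (SD, n = 3, but 2 at 18 h). In serum mice they were 0.75 ± 0.13, 0.59 ± 0.33, 0.42 ± 0.33, 0.32 ± 0.64, 0.46 ± 0.23 and 0.45 ± 0.01 (SD, n = 3 at 1 and 1.5 h, otherwise 2). HIF is mainly controlled through its protein, which these arrays do not measure.

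With time, 6 of the 79 genes passed in oleic acid mice, led by Angptl4, Hif3a, Cxcl12 and Bhlhe40, and 11 in serum mice, led by Angptl4, Cxcl12, Hif3a and Pfkfb3. Of all genes 7.08% passed in oleic acid mice and 10.4% in serum mice. At 3 and 4 h against 1 and 1.5 h, 6 passed as higher and 2 as lower, against 6.64% and 2.79% of all genes, and 30 had an unadjusted p under 0.05, against 26.6% of all genes. Angptl4, a secreted inhibitor of lipoprotein lipase that also answers fasting and glucocorticoids, rose by 1.66 ± 0.15 (adjusted p 1.65e-06, limma). Its mean log2 signal at 4 h was 2.81 ± 0.22 in oleic acid mice (SD, n = 3) and 2.71 ± 0.60 in serum mice (SD, n = 2), whereas at 1 h it was 0.32 ± 0.43 in oleic acid mice and 0.28 ± 0.44 in serum mice (SD, n = 3). The treatments overlapped at both of these times. Hif3a rose by 1.31 ± 0.17 (adjusted p 0.000131, limma), P4ha2 rose by 0.26 ± 0.06 and Cxcl12, a chemokine, fell by 0.48 ± 0.08. Tek, an endothelial receptor that was named after its value was seen, fell by 0.34. With slide as a random block Angptl4 (adjusted p 0.000714) and Hif3a (adjusted p 0.0318) still passed and 0 others did, with slide as a fixed block 0 passed, and with the mean of all its probes Hif3a changed by 0.60 (adjusted p 0.0562).

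At 18 and 24 h 5 of the 79 passed as higher and 2 as lower, against 6.24% and 5% of all genes. Hif1an, which hydroxylates an asparagine of the alpha subunits, rose by 0.36 ± 0.08, Loxl2, a collagen crosslinking enzyme, by 0.55 ± 0.13 and Cxcl12 by 0.35 ± 0.08, while Rora, a nuclear receptor, fell by 0.55 ± 0.11. The remaining 3, named after their values were seen, were Plod1 (0.28), Apln (0.22) and the glucose transporter Slc2a1 (-0.34). With slide as a fixed or a random block 0 passed.

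Glucocorticoid response genes moved in the same window as Ddit4. At 3 and 4 h 17 of 17 were higher and 11 passed as higher, against 6.64% of all genes (median 0.45, against 0.05 over all genes), and at 18 and 24 h 1 passed as higher and 6 as lower, against 6.24% and 5% of all genes (median -0.22, against 0.03). At 3 and 4 h 2 passed as higher with slide as a random block, and with slide as a fixed block 0 passed and 13 of 17 were higher (median 0.22). Hif3a stands on this list too, and Ddit4 and Angptl4 are themselves known to respond to glucocorticoids. The part of this list in the rise of Ddit4 was not tested.

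**Figure D5:**
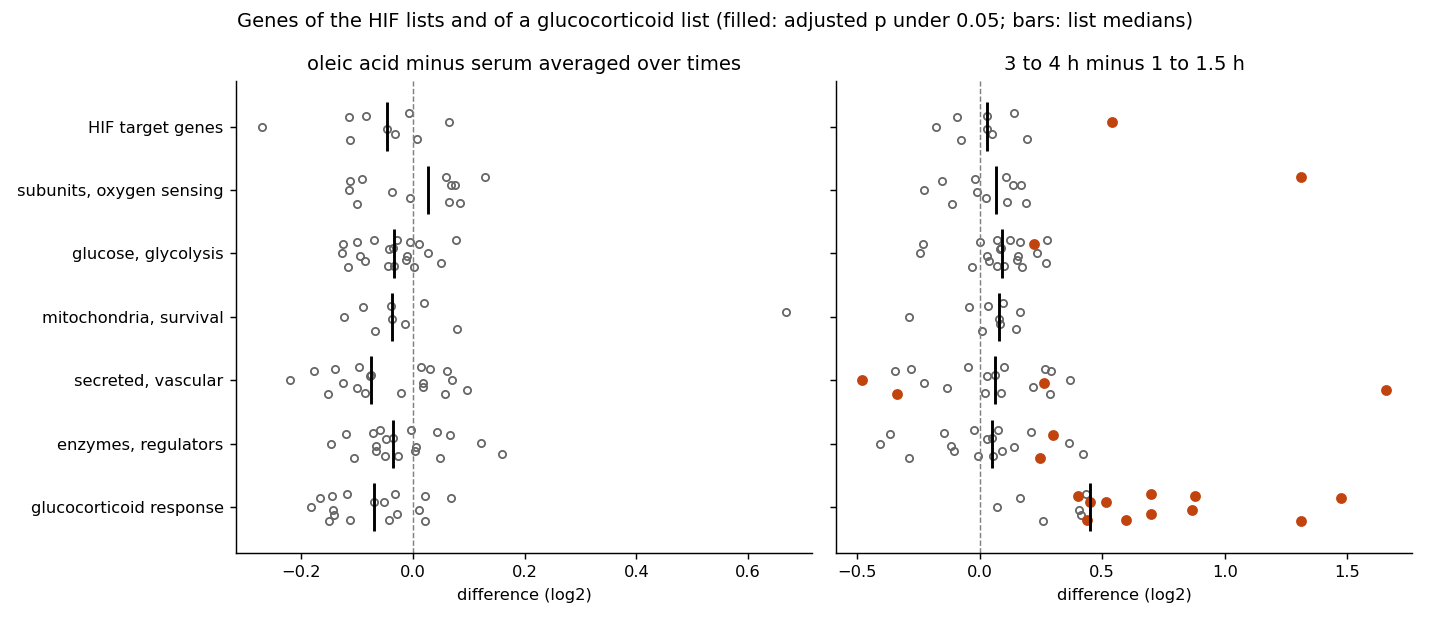
Differences (log2) of single genes in the HIF lists and in a glucocorticoid list, for oleic acid minus serum averaged over times (left) and for 3 to 4 h minus 1 to 1.5 h (right). Filled points passed (adjusted p under 0.05) and bars are list medians. No point is filled on the left, and on the right 11 of 17 glucocorticoid genes are.

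The 9 genes did not vary as one. Across the 31 arrays, which share slides, times and dissection, Pearson correlations between pairs of them ran between -0.29 and 0.67. Ddit4 and Adm had the highest (0.67, and 0.63 once group means were removed), followed by Ldha and Pgk1 (0.62, and 0.75 once group means were removed). Ankrd37 and Bnip3 had 0.58, but 0.08 within groups.

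The genes most like each of them over the 31 arrays were not the other HIF targets, except that Ddit4 was the second nearest to Adm (0.67, after Chmp4b at 0.71). Ddit4 was nearest to Nfkbia (0.87), which stands on the glucocorticoid list, and to Cebpd (0.86). Ldha was nearest to Fxyd6 (0.92) and Csf1r (0.91), of which Csf1r stands on the microglial list. Pgk1 was nearest to Rusc1 (0.94) and Rwdd2b (0.93), Bnip3 to Akr1b3 and Ifnar1 (both 0.86), and Vegfa to Sltm (0.84) and Pcgf6 (0.81). Ankrd37 was nearest to Rrp15 and Efr3a (both 0.78), Pdk1 to Ankrd49 and Lrrc4c (both 0.76), and Egln3 to Sphk2 (0.75) and Hspa5 (0.73).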

How the data were processed

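RNA from 31 mouse brains was labelled with Cy3 and hybridised to 1-colour Agilent arrays. Per the file headers, the deposited spot intensity was background-subtracted and spatially detrended by Agilent Feature Extraction 10.5.1.1, and the deposited flags of background and outliers (other) come from it too. The authors' deposited log2 value table served as an alternative only. Its array medians ran between 6.1283 and 6.1285, and the authors' steps are not given in the sources used here.

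From the intensities, log2 processed signal minus the array's 75th percentile was taken. Control spots and non-uniform outliers were left out, spots of a probe averaged, and probes kept that were well above background on all arrays of at least 1 of 12 groups and measured on all 31 arrays (35487 of 55681). The brightest kept probe stood for a gene. A fit with 12 group means was made in limma 3.58.1 (R 4.3.3) over all 25193 genes, with Benjamini-Hochberg adjustment and a threshold of 0.05. It was tested on simulated data. The number of arrays limits the precision. The genes and lists were chosen with earlier results of these data known. Named were all 9 genes, the 4 other HIF pathway genes with the smallest adjusted p among those passing in a comparison (otherwise the 2 with the smallest unadjusted p), and the 2 genes most correlated with each of the 9. The labels do not say that same-numbered replicates share an animal or batch, and their deviations from the group means correlated between -0.621 and 0.390 over 14 pairs, so no pairing was used. The labels do not state that each array is a separate animal, and p-values measure the spread between arrays.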

Additional observations from a re-analysis of the deposited data

How the results depend on the processing

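The 0 calls of oleic acid against serum among the 9 genes stood at 0 to 0 over all 46 alternatives, including the 31 that left out 1 array. The 4 counts of time calls, each 1, were less steady. For time in oleic acid mice the count was 2 with normexp background correction or with a trended and robust eBayes step, and 0 with scaling to the median, slide as a fixed or random block, or without the arrays of highest Prl. For time in serum mice it was 2 with normexp, the deposited value table or trended and robust eBayes, (with normexp and the deposited table these were Ddit4 and Bnip3, and Ankrd37 no longer passed), and 0 with scaling to the median, no filter on dim probes, slide as a fixed or random block, or without the arrays of highest Prl. For 3 to 4 h it was 2 with the deposited value table, the replicate block or trended and robust eBayes, and 0 with quantile normalization, scaling to the median, no filter, slide as a fixed or random block, or without the arrays of low Gabra6. For 18 to 24 h it was 2 with quantile normalization and 0 with slide as a fixed or random block or without the arrays of low Gabra6. The replicate block changed no other count of the 9 genes. Leaving out 1 array gave 0 to 2 for time in oleic acid mice, in serum mice and at 3 to 4 h, and 1 to 1 at 18 to 24 h. The causes were not tested.

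Among member differences larger than their standard error in the fit reported, 21 recomputed values had the opposite sign, and none of these passed. Another 123 sign changes were of differences smaller than their standard error, which have no settled direction. With the probe A_52_P249424, Vegfa was -0.24 at 1 h, -0.34 at 3 h, 0.17 at 3 to 4 h and -0.10 at 18 to 24 h, and with the mean of its probes -0.0293 at 1 h, -0.0947 at 3 h and -0.00323 at 18 to 24 h. With the probe A_66_P120736, Bnip3 was 0.0721 at 1 h, 0.0477 at 24 h and 0.00224 on average, and with A_55_P2091472 it was -0.0300 at 18 to 24 h. With the probe A_55_P2141876, Ldha was 0.12 at 1.5 h. At 18 h Bnip3 was 0.0257 with normexp and 0.14 in the deposited value table. Pgk1 at 4 h was -0.0741 with scaling to the median, and between -0.0687 and 0.357 when 1 array was left out, with the negative value without serum 4 h replicate 1. With slide as a fixed block, Egln3 was 0.75 and Ankrd37 0.27 (SE 0.40) at 18 h, where the treatments shared no slide. At 18 to 24 h Bnip3 was -0.14, Egln3 -0.000198 and Pgk1 -0.0638 with that block. Scaling to the median moved the median of all genes to 0.14 at 3 h, -0.21 at 4 h and -0.20 at 18 h.

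Over all genes, calls at 3 to 4 h ranged between 3 and 3816 over the alternatives (2376 in the fit reported) and at 18 to 24 h between 32 and 4264 (2832). Those of time ranged between 35 and 2719 in oleic acid mice (1784) and between 126 and 4548 in serum mice (2618). Calls of oleic acid against serum reached 163 at 1.5 h, without serum 1.5 h replicate 3, and 80 at 24 h, with slide as a fixed block. Groups of 2 or 3 mice on 5 slides limit all of these comparisons.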
